A study of Mus musculus with 95 samples.

Results

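The genes described here are 9 genes of the renin-angiotensin system, found by their symbols among the 25407 genes of each expression table: Agt, Ren1, Ace, Agtr1a, Agtr1b, Agtr2, Enpep, Mme and Atp6ap2. They were chosen by their place in the pathway, with earlier results of these data known. Gene expression had been measured by RNA-Seq in 95 libraries of male mice, made from the sciatic nerve (SCN), the dorsal root ganglia that hold its sensory cell bodies (DRG), and the glomeruli (Glom) and cortex of the kidney, 6 libraries per group and tissue except for 5 of db/db DRG. All mice were of the BKS.Cg-m +/+ Leprdb/J strain and 16 weeks old. The groups were db/db mice, homozygous for the leptin receptor mutation and diabetic, that received pioglitazone over 11 weeks at a dose of 15 mg/kg (db/db PIO); untreated db/db mice (db/db); mice with 1 mutant copy given the same drug (db/+ PIO); and untreated mice with 1 mutant copy, the non-diabetic controls (db/+). Controls therefore also carried the mutation, and the mutation was present in every tissue of the animal. Pioglitazone is an agonist of the nuclear receptor PPARG. The labels do not say which libraries came from the same animal, so p-values measure the spread between these libraries only.

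In this pathway the liver and other tissues secrete angiotensinogen (Agt), and renin (Ren1), made mainly by juxtaglomerular cells of the kidney's afferent arterioles, cuts angiotensin I from it. Angiotensin-converting enzyme (Ace) turns angiotensin I into angiotensin II, which acts on type 1 receptors (in rodents from a pair of genes, Agtr1a and Agtr1b) to raise vascular tone and sodium retention, and on the type 2 receptor (Agtr2), which mostly opposes them. Aminopeptidase A (Enpep) and neprilysin (Mme) break angiotensin peptides down, and Atp6ap2 encodes the prorenin receptor, which is also an accessory subunit of the vacuolar proton pump that most cells use.

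Each value is an FPKM, fragments per kilobase of transcript scaled to the mapped fragments of the library, so levels may be compared between genes. An FPKM of exactly 0 was read as missing, because genes that every cell uses were listed at 0 too: Actb in 74 and Gapdh in 34 of the 95 libraries. Ace and Mme were listed at 0 in all 95 libraries and give no value here. The other 7 genes had a value in 38 (Ren1), 33 (Agtr1a), 50 (Agtr1b), 51 (Enpep), 58 (Agt), 65 (Atp6ap2) and 68 (Agtr2) libraries, so many groups held fewer than 6 values. Libraries listed between 7333 and 10432 genes above 0. The FPKM of all genes summed to 129009 to 269263 in every library but some of cortex, where the highest sum, 601310, belonged to db/db replicate 6. Of the defining markers, 4 of 6 podocyte and 3 of 4 mesangial genes were at 0 in every glomerular library, 7 of 11 proximal tubule genes in every cortex library, and 3 of 6 sensory neuron genes in every DRG library, so the tissue labels could be checked on the remainder only. In 1 DRG library, db/db replicate 3, skeletal muscle markers summed to 211.38 FPKM, against at most 23.63 in db/+ DRG. In this and later sums of markers a 0 was added as 0, so a low sum can come from missing values. Lepr, the mutated gene, had 1.06 to 1.87 FPKM in db/db SCN, against 2.25 to 6.57 FPKM in the db/+ SCN libraries with a value. With pioglitazone it overlapped, at 1.14 to 2.33 FPKM in db/db PIO SCN and 0.88 to 2.8 in db/+ PIO SCN libraries with a value. In the other tissues the genotypes overlapped, treated or not. A gene-level value does not separate the isoform that the mutation truncates.

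The genes with values differed in where they were expressed. Ren1 was a kidney gene here, at 23.21 to 168.44 FPKM in 16 glomerular and 35.08 to 118.65 FPKM in 13 cortex libraries, against 0.05 to 0.52 FPKM in 4 SCN and 0.03 to 0.06 FPKM in 5 DRG libraries. Agt was highest in cortex (median 17.63 FPKM in 14 libraries), followed by the 2 DRG libraries with a value (2.57 and 2.85 FPKM), SCN (median 1.61 FPKM in 21) and glomeruli (median 0.13 FPKM in 21); the DRG values lay inside the SCN range, so those neighbours do not differ beyond their spread. Agtr1a had a median of 18.37 FPKM in cortex (n = 6), 9.835 FPKM in DRG (n = 12) and 5.97 FPKM in SCN (n = 15), and the DRG range overlapped both others. It was listed at 0 in all 24 glomerular libraries, where Agtr1b had 0.02 to 0.27 FPKM in 22. Agtr2 stayed under 1 FPKM everywhere, with medians of 0.145 FPKM in DRG, 0.115 in SCN, 0.03 in cortex and 0.025 in glomeruli, and all values above 0.34 FPKM were in SCN. Enpep followed the order cortex (median 34.855 FPKM), SCN (2.92) and DRG (0.93) with no overlap between them, and was at 0 in all glomerular libraries. Atp6ap2 was the most even, at 117.73 to 132.36 FPKM in DRG and with medians of 59.35 FPKM in cortex, 56.6 in glomeruli and 44.77 in SCN; only DRG stood clear of the other tissues.

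**Figure D1:**
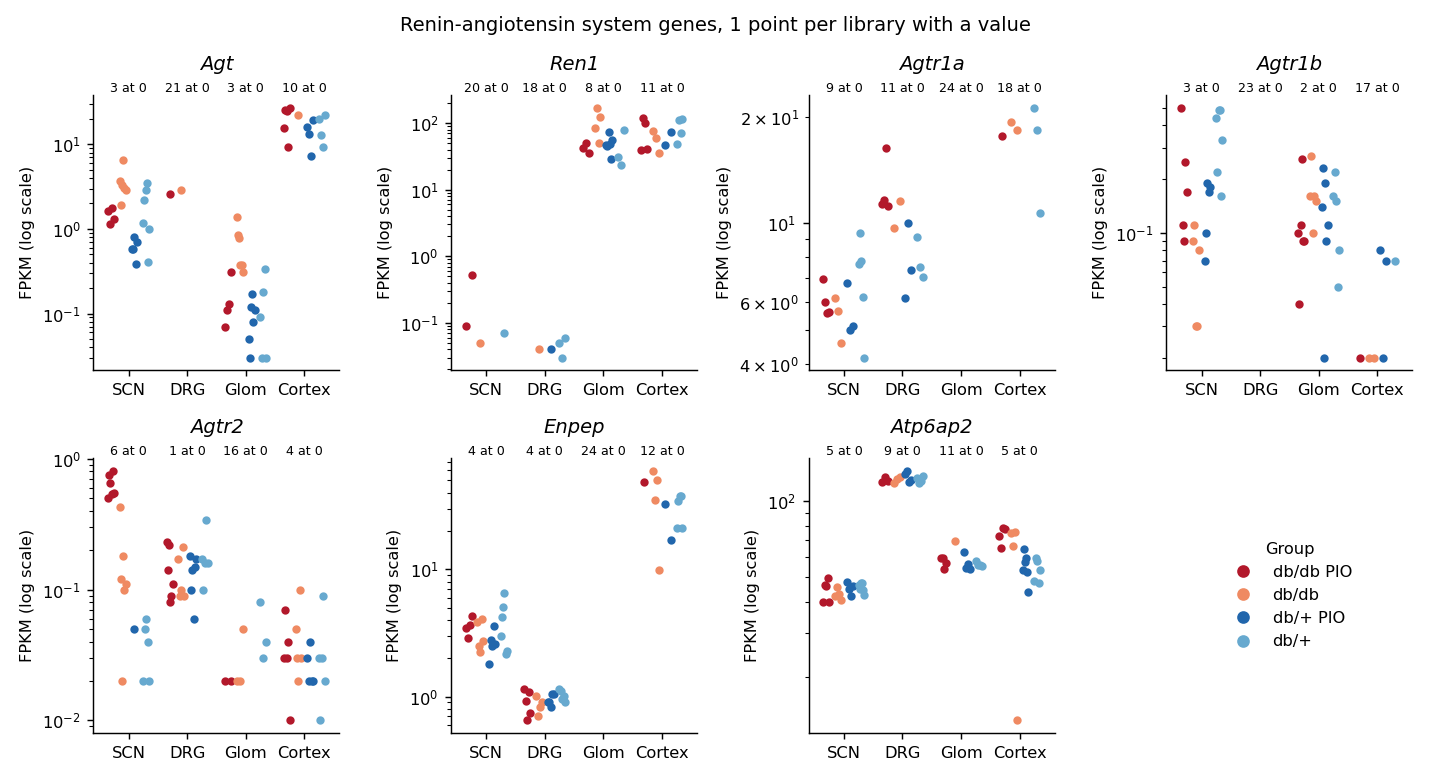
FPKM (log scale) of the 7 genes with values, by tissue and group; each point is 1 library and the count over each tissue gives its libraries listed at 0. Ren1 was above 23 FPKM only in kidney, Agtr2 was highest in db/db PIO SCN (0.5 to 0.81 FPKM), and Atp6ap2 was highest in DRG; Ace and Mme, at 0 throughout, are not drawn.

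Tissue contrasts were tested in db/+ mice with limma on log2(FPKM + 1). Between glomeruli and cortex 2 of 3 genes tested were called (75.5% of all 4097 genes were). Agt had 0.09, 0.03, 0.18, 0.34 and 0.03 FPKM in glomeruli, against 19.81, 12.96, 9.42 and 21.97 FPKM in cortex, with no overlap (log2 fold change -3.85, SE 0.30, limma adjusted p = 1.2e-08). Ren1 had 31.15, 23.21 and 79.85 FPKM in glomeruli, against 47.91, 111.97, 69.74 and 115.13 FPKM in cortex (log2 fold change -1.05, SE 0.40, limma adjusted p = 0.037). The Ren1 ranges overlapped, an exact permutation test gave p = 0.14, and the call was lost without cortex replicate 3 (-0.89, limma adjusted p = 0.090) or 6 (-0.88, 0.091). Between SCN and DRG 2 of 3 genes tested were called (79.0% of 4330 were). Atp6ap2 was lower in SCN, at 42.43 to 47.22 FPKM (median 45.56, n = 6), than in DRG, at 124.11, 118.23, 120.71 and 126.2 FPKM (log2 fold change -1.41, SE 0.06, limma adjusted p = 1.9e-13). Enpep was higher in SCN, at 2.18 to 6.57 FPKM (median 3.605, n = 6), than in DRG, at 1.14, 1.1, 0.95, 1.02 and 0.91 FPKM (log2 fold change 1.20, SE 0.22, limma adjusted p = 9.8e-05). Agtr2 is under the filter on low values, 1 FPKM in at least 5 libraries of the tissues tested; fitted without it, where 68.4% of 6699 genes were called, it was lower in SCN (0.02, 0.05, 0.06, 0.04 and 0.02 FPKM) than in DRG (0.17, 0.1, 0.16, 0.34 and 0.16 FPKM; log2 fold change -0.19, SE 0.04, limma adjusted p = 3.9e-04). Agtr1a did not differ beyond its error between SCN and DRG (log2 fold change -0.18, SE 0.24, limma adjusted p = 0.50).

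Agt lies on chr8:127080434-127093606, minus strand, in NCBI 37/mm9. The upstream sequences of Agt and of Agtr2 and Ren1, described further on, are shown as examples of genes that differed between the groups. The sequence of Agtr1b, which also differed, is described but not printed. Each is the 250 bases before the RefSeq start site, 5′ to 3′, in GRCm38.p6. Capitals mark matches, on either strand, to the TATA box TATAAA, the promoter element CCAAT, the nuclear receptor half-site AGGTCA, and its direct repeat with 1 base between (DR1), the kind of element that PPARG binds with its partner RXR. The positions are chr8:124569707-124569956 (minus strand) for Agt, chr1:133350424-133350673 (plus strand) for Ren1 and chrX:21484374-21484623 (plus strand) for Agtr2.
Agt: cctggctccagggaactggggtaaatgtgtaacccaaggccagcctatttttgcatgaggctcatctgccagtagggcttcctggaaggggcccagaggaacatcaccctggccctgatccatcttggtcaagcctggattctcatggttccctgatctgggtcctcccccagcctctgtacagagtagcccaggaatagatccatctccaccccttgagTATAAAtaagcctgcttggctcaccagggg
Ren1: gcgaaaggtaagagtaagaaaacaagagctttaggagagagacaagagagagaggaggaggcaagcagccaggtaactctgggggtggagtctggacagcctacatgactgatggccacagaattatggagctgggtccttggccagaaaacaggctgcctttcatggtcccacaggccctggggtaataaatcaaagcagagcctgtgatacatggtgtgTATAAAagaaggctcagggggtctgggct
Agtr2: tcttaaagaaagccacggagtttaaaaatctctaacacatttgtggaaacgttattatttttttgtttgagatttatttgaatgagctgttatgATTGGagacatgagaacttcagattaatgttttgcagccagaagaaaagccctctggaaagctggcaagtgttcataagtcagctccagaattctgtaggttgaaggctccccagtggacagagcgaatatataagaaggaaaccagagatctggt
Agt and Ren1 each held TATAAA, beginning 30 and 29 bases before the start, and Agtr2 held CCAAT in reverse, beginning 156 bases before it. Agtr1b held TATAAA, beginning 31 bases before the start, and CCAAT in reverse, beginning 156 bases before it. TATAAA was present in 12.4% of 32851 RefSeq upstream windows of this length, and CCAAT in 33.9%. AGGTCA, present in 14.02% of windows, and the direct repeat, present in 0.033%, matched in none of the 3 printed windows, nor in that of Agtr1b. No match says only that these letters are not in the window.

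In SCN, Agt was higher in db/db than in db/+ nerve and lower in db/db PIO than in db/db nerve. The 6 db/db libraries ran between 1.94 and 6.6 FPKM (median 3.185), against 0.41 and 3.5 FPKM in the 6 db/+ libraries (median 1.68), and these ranges overlapped. The log2 fold change of db/db over db/+ was 0.73 (SE 0.23, limma adjusted p = 0.040); among the genes of the system Agt was the 1 called of 4 tested, where 14.9% of 4233 genes were called. The db/db PIO libraries had 1.61, 1.15, 1.76 and 1.3 FPKM with 2 listed at 0, all below the lowest db/db library. Their log2 fold change over db/db was -0.85 (SE 0.26, limma adjusted p = 0.043), again for 1 of 4 genes tested (10.1% of 3940), and an exact permutation test of the values gave p = 0.014, the smallest possible being 0.0048. In mice without diabetes the db/+ PIO libraries had 0.58, 0.58, 0.81, 0.38 and 0.71 FPKM, against the db/+ values above, with a log2 fold change of -0.72 (SE 0.25, limma adjusted p = 0.26). That comparison called 0.0778% of 5142 genes and 0 of the 4 genes tested here, among which Agt alone had an unadjusted p under 0.05 (0.0084). The db/db PIO values did not overlap the db/+ PIO values either (log2 fold change 0.61, SE 0.27, limma adjusted p = 0.091; 0 of 4 genes called, with 33.8% of 4402 genes called). The drug's log2 fold changes in db/db and db/+ nerve differed by -0.13 (SE 0.36, limma adjusted p = 0.87), where 6.23% of 3596 genes and 0 of these 4 were called.

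Both SCN calls for Agt lay close to the threshold. They come from the fit with the low-value filter. Without it, in the fit that Agtr2 and Agtr1b are taken from, neither was called (limma adjusted p = 0.062 for db/db over db/+ and 0.074 for db/db PIO over db/db). The db/db against db/+ call was lost without db/+ replicate 1, 5 or 6 or db/db replicate 1, 3, 4 or 5, with log2 fold changes of 0.55 to 0.76 and limma adjusted p between 0.050 and 0.094. The db/db PIO against db/db call was lost without 11 libraries in turn: any of db/db PIO replicates 1 to 4, db/db replicates 1, 3, 4, 5 or 6, or db/+ PIO replicates 3 or 6 (log2 fold changes of -0.91 to -0.69, limma adjusted p between 0.051 and 0.11). In these tissue extracts, fewer cells of a type and less RNA per cell cannot be told apart. The adipocyte gene Fabp4 was at 7230.4 to 16830.2 FPKM in db/db PIO, 2427.73 to 8591.48 in db/db and, in the 2 db/+ libraries with a value, at 1542.69 and 2873.66 FPKM, while Cidec was at 0 in all SCN libraries and Adipoq, Plin1 and Lep in all db/db and db/db PIO SCN libraries. The summed adipocyte markers, Fabp4 alone in db/db PIO and db/db nerve, ranged over 7230.4 to 16830.2 FPKM in db/db PIO and 2427.73 to 8591.48 in db/db. They ranged over 1.94 to 9665.29 FPKM in db/+ PIO and 0 to 2873.66 in db/+ nerve. Whether Fabp4 tracked the amount of fat was not tested. Of 2 endothelial markers tested, 1 was higher in db/db than in db/+ nerve (14.9% of all genes were called). In db/db PIO against db/db nerve 1 of 2 was lower (10.1% of all genes were called). The part of fat or of any other cell type in the SCN results on Agt, Agtr1b and Agtr2 was not tested.

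Agtr2, on chrX:21061670-21066290 (plus strand, NCBI 37/mm9), was higher in db/db PIO nerve than in all other SCN libraries with a value. It had 0.5 to 0.81 FPKM in the 6 db/db PIO libraries (median 0.60), 0.02 to 0.43 FPKM in the 6 db/db libraries (median 0.115), 0.05 FPKM in 1 db/+ PIO library with the other 5 at 0, and 0.02, 0.05, 0.06, 0.04 and 0.02 FPKM in db/+. All 6 db/db PIO libraries were above the highest db/db library, replicate 1 at 0.43 FPKM, and above all others with a value. With 1 value in db/+ PIO, neither db/db PIO against db/+ PIO nor the drug in db/+ nerve could be tested. Whether the drug acted differently in the 2 genotypes could therefore not be tested either. Means were 0.633 ± 0.125 FPKM in db/db PIO and 0.160 ± 0.142 FPKM in db/db (SD, n = 6 each), a ratio of 3.96, and an exact permutation test gave p = 0.0022, the smallest that 924 regroupings allow. Fitted without the low-value filter, where 5.44% of 7596 genes were called, the log2 fold change was 0.50 (SE 0.07, limma adjusted p = 5.3e-04), small beside the ratio because 1 was added to values under 1. The call was kept under all 9 other settings and with each of the 24 SCN libraries left out. Between db/db and db/+ nerve the ranges overlapped and the log2 fold change was 0.15 (SE 0.07, limma adjusted p = 0.19). In DRG and cortex the drug comparison was not called. In DRG Agtr2 had 0.145 ± 0.065 FPKM in db/db PIO (n = 6) and 0.132 ± 0.055 FPKM in db/db (n = 5; log2 fold change 0.02, SE 0.05, limma adjusted p = 0.97). In cortex it had 0.036 ± 0.022 and 0.046 ± 0.032 FPKM (n = 5 each; -0.01, SE 0.02, limma adjusted p = 0.77). Glomeruli had too few values to fit, at 0.02 FPKM in 2 db/db PIO libraries and 0.02 to 0.05 FPKM in 3 db/db libraries.

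Agtr1b, on chr3:20213395-20266099 (minus strand), was lower in db/db than in db/+ nerve. In SCN it had 0.09, 0.11, 0.03, 0.03 and 0.08 FPKM in db/db, against 0.16 to 0.49 FPKM in the 6 db/+ libraries (median 0.385), with no overlap. Means were 0.068 ± 0.036 FPKM in db/db (n = 5) and 0.355 ± 0.142 FPKM in db/+ (n = 6), and the exact permutation test gave p = 0.0043. Without the low-value filter the log2 fold change was -0.34 (SE 0.08, limma adjusted p = 0.0092; 8.98% of 7621 genes were called), and it stayed called with each of the 24 libraries left out. With pioglitazone it had 0.07, 0.1, 0.19, 0.17 and 0.18 FPKM in db/+ PIO nerve, against the db/+ values above (log2 fold change -0.24, SE 0.08, limma adjusted p = 0.28; exact permutation p = 0.019), and 0.5, 0.11, 0.09, 0.25 and 0.17 FPKM in db/db PIO nerve, which overlapped db/db (log2 fold change 0.19, SE 0.08, limma adjusted p = 0.20). The drug's log2 fold changes in db/db and db/+ nerve differed by 0.43 (SE 0.11, limma adjusted p = 0.042; 2.92% of 6505 genes were called), a call lost without 15 of the 24 libraries in turn (limma adjusted p between 0.050 and 0.073). Mast cell markers were also lower in db/db nerve, all 4 of 4, with a summed level of 44.7 to 90.18 FPKM in db/db PIO, 0 to 46.14 in db/db, 5.92 to 72.39 in db/+ PIO and 50.23 to 119.65 in db/+. A sum of 0 means that all 4 markers were listed at 0 in that library, which is read as missing. The part of mast cells in the Agtr1b values was not tested. In glomeruli Agtr1b was at 0.04 to 0.26 FPKM in db/db PIO, 0.1 to 0.27 in db/db, 0.02 to 0.23 in db/+ PIO and 0.05 to 0.22 in db/+, and these ranges all overlapped.

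**Figure D2:**
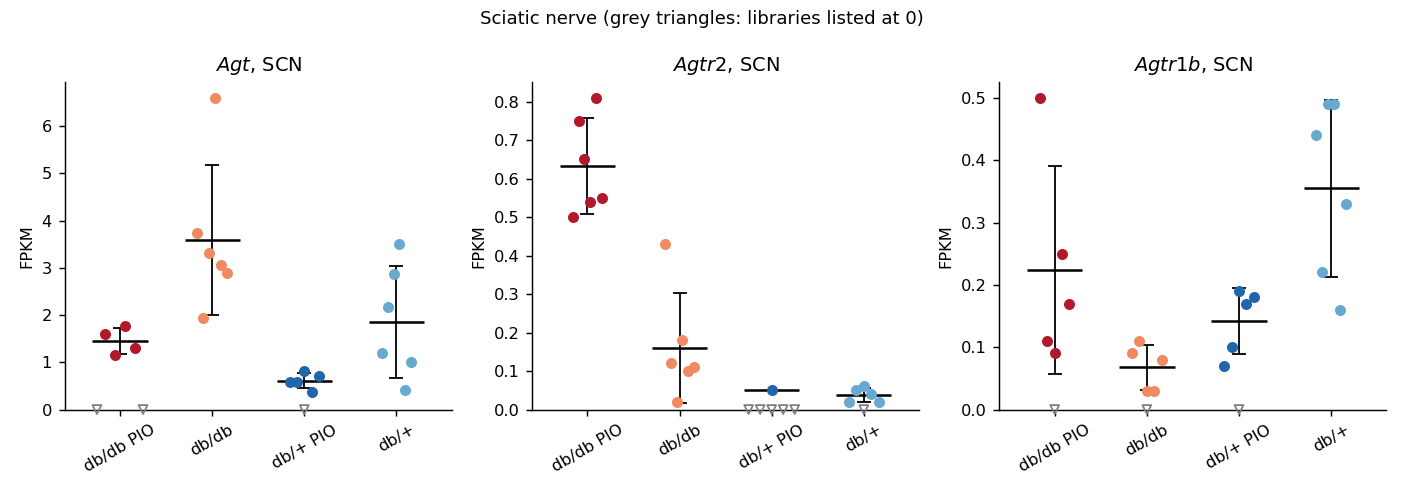
FPKM of Agt, Agtr2 and Agtr1b in sciatic nerve by group; points are libraries, bars are the mean ± SD over libraries with a value, and grey triangles on the axis are libraries listed at 0. The 6 db/db PIO libraries sit at 0.5 to 0.81 FPKM of Agtr2, above all others with a value, and the db/db libraries at 0.03 to 0.11 FPKM of Agtr1b, below all db/+ libraries.

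The type 1 receptor genes have similar coding sequences, so some reads could be assigned to the wrong one. Their coding sequences, both 1080 bases in the GENCODE transcripts, were identical at 981 positions (90.8%), with a longest identical run of 66 bases. No window of 100 bases, the read length, was without a difference, but 21 of 981 windows held at most 2. The median was 8 differences and the most was 22. The most alike window, coding bases 280 to 379 from the start codon, is printed for both genes as the extreme case, with the differing base in capitals.
Agtr1a: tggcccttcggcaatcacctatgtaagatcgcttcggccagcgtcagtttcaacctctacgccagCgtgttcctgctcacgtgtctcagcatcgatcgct
Agtr1b: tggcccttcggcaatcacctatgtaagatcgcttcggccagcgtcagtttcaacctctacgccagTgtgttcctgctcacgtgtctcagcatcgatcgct
Agtr1a was at 4.16 FPKM or more wherever it had a value in SCN, against at most 0.5 FPKM of Agtr1b, and the share of misplaced reads was not tested. In DRG, where Agtr1a had a median of 9.835 FPKM, Agtr1b was listed at 0 in all 23 libraries. These zeros are read as missing, so they say nothing about misplaced reads.

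Agtr1a, on chr13:30428310-30474736 (plus strand), was higher in db/db PIO than in db/+ PIO ganglia. It had 11.36, 11.66, 16.39 and 11.22 FPKM in db/db PIO DRG, against 6.15, 9.99 and 7.37 FPKM in db/+ PIO DRG. The groups did not overlap, and means were 12.7 ± 2.5 FPKM (n = 4) and 7.84 ± 1.96 FPKM (n = 3; SD). The log2 fold change was 0.63 (SE 0.16, limma adjusted p = 0.036), 1 call among 3 genes tested where 8.64% of 4095 genes were called, and the exact permutation test gave p = 0.029, the smallest possible. The call was lost without db/db PIO replicate 3 (0.67, limma adjusted p = 0.051) or 4 (0.51, 0.068). In the same comparison both adipocyte markers tested were higher. The 5 adipocyte markers summed to 25.63 to 183.62 FPKM in db/db PIO, 3.93 to 37.98 in db/db, 3.92 to 81.43 in db/+ PIO and 1.67 to 33.81 in db/+ DRG. None was at 0 in all libraries of a group, though a 0 in a single library entered its sum as 0. Also higher were 1 of 3 fibroblast markers (Pdgfra) and 1 of 5 macrophage markers (Mrc1). The 1 satellite glia marker tested, Kcnj10, was lower, as was 1 of 2 mesangial markers (Serpine2). The part of these cell types in the Agtr1a result was not tested. Untreated db/db DRG had 9.68 and 11.57 FPKM, both above the db/+ values of 9.17, 7.54 and 7.04 FPKM but too few to test. In SCN it had 6.14, 5.63 and 4.58 FPKM in db/db, against 7.66, 9.37, 7.81, 6.17 and 4.16 FPKM in db/+ (log2 fold change -0.29, SE 0.18, limma adjusted p = 0.31). In SCN it was called only when db/+ replicate 6 was left out (log2 fold change -0.44, limma adjusted p = 0.047). Its 6 cortex values, 17.65 FPKM in db/db PIO, 19.42 and 18.35 in db/db, and 21.22, 18.39 and 10.72 in db/+, allowed no test.

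In glomeruli, both genes at the head of the pathway were higher in db/db than in db/+ mice. Ren1, on chr1:135247087-135256902 (plus strand), had 85.29, 168.44, 49.86 and 122.09 FPKM in db/db, against 31.15, 23.21 and 79.85 FPKM in db/+, with 2 and 3 libraries at 0. Means were 106.4 ± 50.8 FPKM (n = 4) and 44.7 ± 30.7 FPKM (n = 3; SD), and the ranges overlapped. The log2 fold change was 1.30 (SE 0.42, limma adjusted p = 0.033), where 25.4% of 4210 genes were called and Ren1 was the 1 gene of the system that could be tested. The exact permutation test gave p = 0.11, and the call was lost without db/db replicate 4 (1.03, limma adjusted p = 0.092) or 6 (1.19, 0.073). The db/db PIO libraries, with 42.68, 49.77 and 35.84 FPKM and 3 at 0, lay below all db/db libraries (log2 fold change -1.17, SE 0.42, limma adjusted p = 0.056; 0 of 1 gene called, with 23.1% of 4158 genes called; exact permutation p = 0.057). Leaving out db/+ replicate 5 or 6 or db/db replicate 5 brought that limma adjusted p to 0.046, 0.027 and 0.018. The db/+ PIO libraries, the 1 group with a value in all 6, ran from 28.54 to 73.66 FPKM (median 47.76), and the fit of db/+ PIO over db/+ gave a log2 fold change of 0.30 (SE 0.39, limma adjusted p = 0.997).

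Ren2, the other renin gene that some mouse strains carry, was not analysed here. In cortex Ren1 showed no such order: it had 76.03, 60.28 and 35.08 FPKM in db/db, against 47.91, 111.97, 69.74 and 115.13 FPKM in db/+ (log2 fold change -0.57, SE 0.44, limma adjusted p = 0.52). The difference between the glomerular and the cortical fold change was 1.86 on the log2 scale (SE 0.64, limma adjusted p = 0.051; 0 of 1 gene called, with 14.3% of 3415 genes called), and it passed the threshold with 9 of the libraries left out in turn (limma adjusted p between 0.020 and 0.050). The other juxtaglomerular markers did not move with Ren1: Akr1b7 was at 8.69 to 27.51 FPKM in db/db PIO, 9.21 to 21.63 in db/db, 9.94 to 18.54 in db/+ PIO and 9.8 to 19.21 in db/+ glomeruli, and 0 of the 3 markers were called between db/db and db/+.

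Agt was low in glomeruli but ordered by group. It had 0.31 to 1.38 FPKM in the 6 db/db libraries (median 0.575), against 0.09, 0.03, 0.18, 0.34 and 0.03 FPKM in db/+, so only 1 db/+ library reached the lowest db/db libraries. Means were 0.677 ± 0.414 FPKM (n = 6) and 0.134 ± 0.131 FPKM (n = 5; SD), with an exact permutation p of 0.015. Fitted without the low-value filter the log2 fold change was 0.54 (SE 0.12, limma adjusted p = 0.0039), 1 of 2 genes called among the 4 tested, where 19.0% of 7505 genes were called; the other was Ren1. The db/db PIO libraries had 0.07, 0.11, 0.13 and 0.31 FPKM, of which 1 equalled the lowest db/db library (log2 fold change over db/db -0.51, SE 0.13, limma adjusted p = 0.0095; 18.0% of 7321 genes called; exact permutation p = 0.029). The db/+ PIO libraries ran from 0.03 to 0.17 FPKM (median 0.095). Both calls were kept with each of the 24 libraries left out. The drug's log2 fold changes in db/db and db/+ glomeruli differed by -0.46 (SE 0.18, limma adjusted p = 0.12).

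Genes of the surrounding tubule and interstitium also differed between these glomerular libraries, in comparisons where 25.4% (db/db over db/+) and 23.1% (db/db PIO over db/db) of all genes were called. Of the 11 proximal tubule markers, whose summed level was 3.62 to 27.46 FPKM in db/db PIO, 10.69 to 61.7 in db/db, 5.95 to 26.47 in db/+ PIO and 8.81 to 143.23 in db/+, 2 of 6 tested were higher in db/db than in db/+ and 2 of 6 lower in db/db PIO than in db/db. All 3 collecting duct markers tested were higher in db/db and lower in db/db PIO, as were both fibroblast markers tested, among them Dcn at 0.53 to 1.87 FPKM in db/db PIO, 5.65 to 8.3 in db/db, 0.28 to 2.68 in db/+ PIO and 0.62 to 10.13 in db/+. Agt in cortex was over 9 FPKM in all 4 db/+ libraries with a value. Zeros entered the summed proximal tubule level as 0. The part of these cell types in the glomerular Agt and Ren1 results was not tested.

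**Figure D3:**
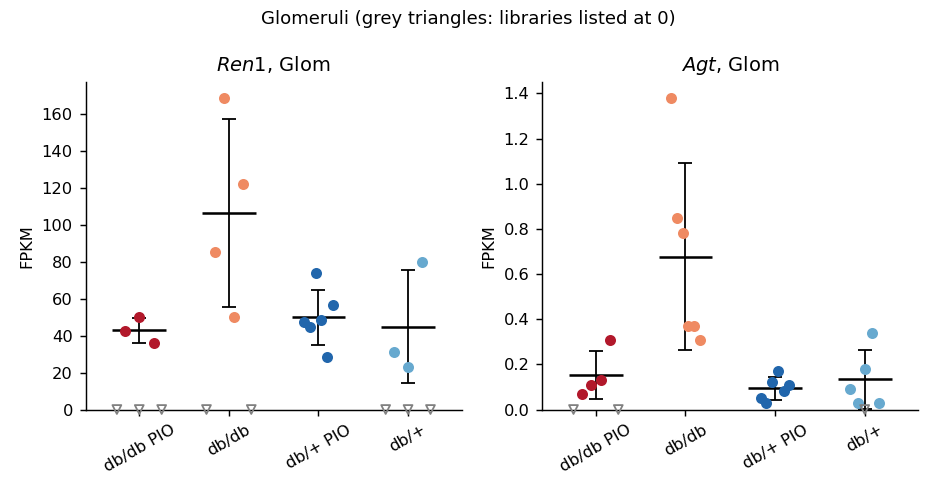
FPKM of Ren1 and Agt in glomeruli by group; points are libraries, bars are the mean ± SD over libraries with a value, and grey triangles are libraries listed at 0. Ren1 averaged 42.8 FPKM in db/db PIO, 106.4 in db/db, 49.8 in db/+ PIO and 44.7 in db/+ libraries, and the db/db libraries held the highest Agt values, up to 1.38 FPKM.

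Agt in cortex had 15.78, 25.76, 24.75, 9.25 and 26.94 FPKM in db/db PIO, against 16.04, 13.38, 7.25 and 19.22 FPKM in db/+ PIO, overlapping ranges (log2 fold change 0.50, SE 0.34, limma adjusted p = 0.35). Only 1 of the 6 db/db libraries had a value, 22.09 FPKM in replicate 6, so diabetes could not be tested on Agt in untreated cortex.

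Atp6ap2, on chrX:12164927-12194175 (plus strand), varied little within a tissue except in cortex. There it had 72.54, 65.03, 78.63 and 77.81 FPKM in db/db PIO; 74.55, 66.26, 75.77 and 13.48 FPKM in db/db; 43.48 to 64.94 FPKM in the 6 db/+ PIO libraries (median 55.45); and 48.31, 59.35, 57.88, 47.17 and 53.13 FPKM in db/+. All db/db PIO libraries were above all db/+ PIO libraries, and 3 of 4 db/db libraries were above all db/+ libraries. The exception, db/db replicate 6, was the library with the highest FPKM sum. With it, no contrast was called: db/db over db/+ was -0.15 (SE 0.33, limma adjusted p = 0.87; 0 of 3 genes tested, with 10.3% of 3925 called) and db/db PIO over db/+ PIO was 0.41 (SE 0.32, limma adjusted p = 0.41; 0 of 2, with 19.7% of 3865). Without it, db/db over db/+ was 0.44 (SE 0.11, limma adjusted p = 0.011) and db/db PIO over db/+ PIO was 0.41 (SE 0.10, limma adjusted p = 0.0049). An exact permutation test of db/db PIO against db/+ PIO, which that library does not enter, gave p = 0.0095. Between db/db PIO and db/db the log2 fold change was 0.61 (SE 0.35, limma adjusted p = 0.32; 0 of 2, with 3.24% of 3890) and, without that library, 0.02 (SE 0.12, limma adjusted p = 0.92).

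In the other tissues the groups of Atp6ap2 values overlapped. In SCN it had 44.4 ± 4.4 FPKM in db/db PIO (n = 5), 42.7 ± 2.1 in db/db (n = 4), 45.2 ± 2.5 in db/+ PIO (n = 4) and 45.4 ± 1.9 in db/+ (n = 6). In DRG it had 121.3 ± 2.9 (n = 3), 121.5 ± 3.5 (n = 3), 125.4 ± 6.0 (n = 4) and 122.3 ± 3.5 FPKM (n = 4) in the same order. None of these comparisons was called (limma adjusted p of 0.38 or more). In glomeruli the db/db group was the exception: only 1 library had a value, 69.4 FPKM, above the 12 values of 53.72 to 62.87 FPKM in the other 3 groups.

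**Figure D4:**
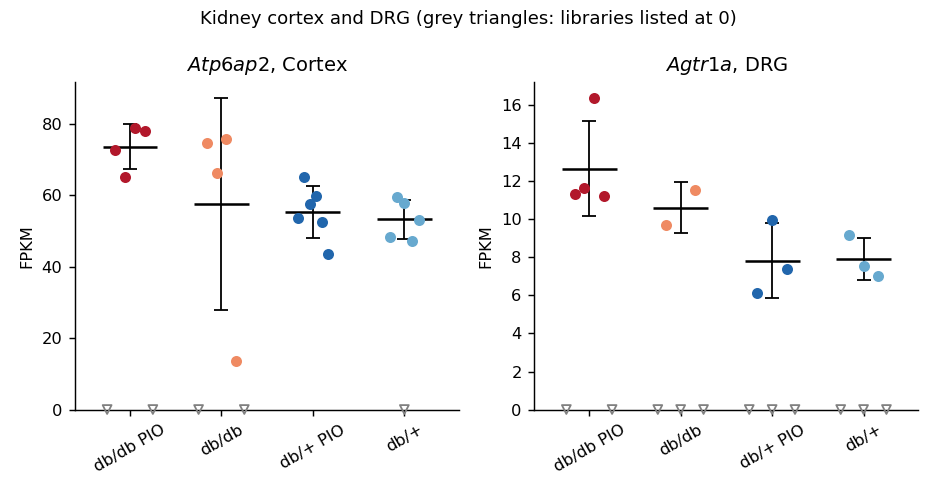
FPKM of Atp6ap2 in kidney cortex and of Agtr1a in DRG by group; points are libraries, bars are the mean ± SD over libraries with a value, and grey triangles are libraries listed at 0. The db/db cortex library at 13.48 FPKM of Atp6ap2 sits far below the others, which lie between 43.48 and 78.63 FPKM; Agtr1a was at 11.22 to 16.39 FPKM in db/db PIO DRG and 6.15 to 9.99 FPKM in db/+ PIO DRG.

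Enpep, on chr3:128972093-129035638 (minus strand), gave no called difference between groups. In SCN it had 3.44, 2.87, 3.67 and 4.3 FPKM in db/db PIO, 3.83, 2.51, 2.25, 4.08 and 2.76 in db/db, 1.82, 2.77, 2.51, 3.62 and 2.57 in db/+ PIO and 2.18 to 6.57 in db/+. In DRG all 19 values lay between 0.65 and 1.15 FPKM. In cortex 59.69, 35.14, 50.23 and 9.87 FPKM in db/db overlapped 21.25, 34.57, 37.71, 37.49 and 21.25 FPKM in db/+ (log2 fold change 0.13, SE 0.44, limma adjusted p = 0.92), and the lowest of these, db/db replicate 6, was again the library with the highest FPKM sum; without it the log2 fold change was 0.66 (SE 0.27, limma adjusted p = 0.11).

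**Figure D5:**
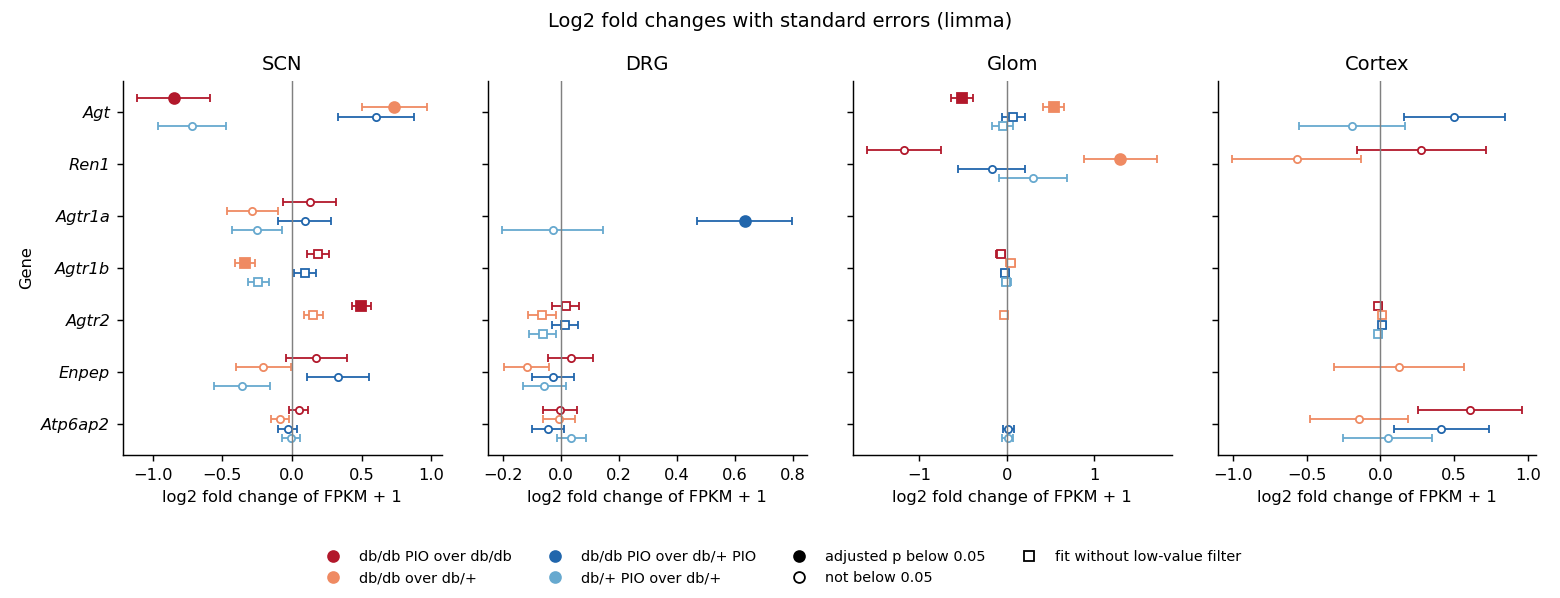
Log2 fold changes of FPKM + 1 with standard errors for each gene and comparison with at least 3 values per group, by tissue; filled markers have a limma adjusted p below 0.05, and squares are fits without the filter on low values. Filled markers appear for Agt, Agtr1b and Agtr2 in SCN, Agtr1a in DRG, and Agt and Ren1 in glomeruli, and none appear in cortex.

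Over the comparisons not yet counted, limma called 0 of 2 genes for db/db over db/+ DRG (4.13% of 3829 genes were called), 0 of 2 for db/db PIO over db/db DRG (0.0% of 3794), 0 of 3 for db/+ PIO over db/+ DRG (0.0% of 4153) and 0 of 2 for the drug's difference between genotypes there (0.0% of 3305). In glomeruli it called 0 of 2 for db/db PIO over db/+ PIO (8.41% of 4255), 0 of 2 for db/+ PIO over db/+ (0.0% of 4419) and 0 of 1 for the drug's difference (9.71% of 3563; Ren1 -1.47, SE 0.57, limma adjusted p = 0.12). In cortex it called 0 of 2 for db/+ PIO over db/+ (0.025% of 4004) and 0 of 1 for the drug's difference (0.031% of 3228). At an unadjusted limma p under 0.05, the only one of these was that glomerular difference in Ren1. The median log2 fold change of the 4 genes tested in SCN was -0.15 for db/db over db/+ (0.02 over all genes tested) and 0.09 for db/db PIO over db/db (0.02 over all).

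Other genes of the pathway were read from a list of 28 enzymes, receptors and targets. Between db/db and db/+ SCN, 1 of 9 tested was higher and 2 were lower, where 14.9% of all genes tested were called. Those lower were the mast cell proteases chymase Cma1 (6.61 to 21.42 FPKM in 4 db/db, 25.43 to 50.19 in 4 db/+ libraries) and cathepsin G, Ctsg (0.31 to 1.07 in 5 db/db, 0.86 to 3.43 in 6 db/+), which in humans can make angiotensin II without Ace; log2 fold changes were -1.54 (SE 0.32, limma adjusted p = 0.0074) and -1.10 (SE 0.22, 0.0026). Cma1 is 1 of the 4 mast cell markers given beside Agtr1b. The higher gene was prolyl endopeptidase, Prep (0.27, SE 0.07, limma adjusted p = 0.016). Between db/db PIO and db/db SCN 0 of 9 were called (10.1% of all genes). Between db/db PIO and db/+ PIO SCN, where 33.8% of all genes were called, 3 of 12 were higher, among them aminopeptidase N, Anpep (9.01 to 23.81 FPKM in 4 db/db PIO, 1.39 to 3.82 in 5 db/+ PIO libraries; log2 fold change 2.24, SE 0.40, limma adjusted p = 2.9e-04) and Lnpep, which binds angiotensin IV (0.47, SE 0.15, limma adjusted p = 0.023).

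In glomeruli 2 of 7 genes of the list were higher in db/db than in db/+ mice and 2 of 6 lower in db/db PIO than in db/db mice, the same pair each time. These shares are near the 25.4% and 23.1% of all genes called. Anpep had 0.76 to 1.75 FPKM in db/db PIO, 2.37 to 4.33 in db/db and 0.64 to 5.7 in db/+ libraries (log2 fold changes of 0.73 with diabetes and -1.01 with the drug, SE 0.23 each, limma adjusted p = 0.023 and 0.0033). Prcp, a carboxypeptidase that removes the last residue of angiotensin II, had 5.83 to 8.56 FPKM in 4 db/db PIO, 8.38 to 15.76 in 5 db/db and 6.75 to 7.5 in 5 db/+ libraries (0.57, SE 0.14, and -0.66, SE 0.15; limma adjusted p = 0.0067 and 0.0047). Anpep, like Agt, was far higher in cortex than in glomeruli of db/+ mice (log2 fold change of glomeruli over cortex -3.58, SE 0.36, limma adjusted p = 9.0e-09).

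Downstream of the mineralocorticoid receptor, Sgk1, a kinase that aldosterone induces, was higher in db/db PIO than in db/+ PIO mice in DRG (13.87 to 17.84 FPKM in 5 db/db PIO, 6.97 to 9.08 in 6 db/+ PIO libraries; log2 fold change 0.95, SE 0.16, limma adjusted p = 9.8e-04) and in cortex (44.41 to 187.69 in 6 db/db PIO, 19.46 to 30.57 in 3 db/+ PIO; 2.12, SE 0.46, limma adjusted p = 0.0030). Aminopeptidase B, Rnpep, was lower in the same comparison in both tissues (-0.58, SE 0.08, limma adjusted p = 1.6e-04 in DRG; -0.59, SE 0.15, 0.013 in cortex), as was the renin-cell gene Akr1b7 in cortex (-0.59, SE 0.18, limma adjusted p = 0.025). Of the 3 juxtaglomerular markers tested in that cortex comparison, 1 was lower (Akr1b7) and 1 was higher. Of the pathway list, 1 of 5 genes was higher and 1 lower in DRG, where 8.64% of all genes were called. In cortex 1 of 8 was higher and 2 were lower, where 19.7% of all genes were called. In no tissue was a gene of the list called between db/+ PIO and db/+ mice. Aldosterone is not among these data, and its part in the Sgk1 values was not tested.

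Mas1, the receptor for angiotensin 1-7, is under the low-value filter and was singled out after its values were seen. In cortex it had 0.02 to 0.15 FPKM in the 6 db/db PIO libraries and 0.06 to 0.24 in the 6 db/db libraries, against 0.72 to 0.91 FPKM in 4 db/+ PIO libraries, and 0.69 and 0.83 FPKM in the 2 db/+ libraries with a value. No library of the db/db genotype came near one of the db/+ genotype. Without the filter, where 14.5% of 7475 genes were called, the log2 fold change of db/db PIO over db/+ PIO was -0.71 (SE 0.05, limma adjusted p = 1.9e-07); untreated mice had too few db/+ values to test. In the other tissues Mas1 was at 0.01 to 0.36 FPKM in all groups.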

How the data were processed

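RNA was extracted with Trizol, libraries were made with the TruSeq mRNA kit and sequenced as paired 100-base reads. The authors aligned the reads to NCBI 37/mm9 with TopHat and Bowtie and computed FPKM with Cufflinks; the deposited FPKM tables, 1 per library, were used as they are. They hold no read counts, so the depth of each library is unknown and no interval on counting could be given. An FPKM of 0 was treated as missing, except in the sums of markers, where it was added as 0.

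Groups followed the sample labels. Differences were tested with limma 3.58.1 (R 4.3.3) on log2(FPKM + 1), with 1 mean per group, an intensity trend of the variance and Benjamini-Hochberg adjustment over all genes tested, called below 0.05. Genes needed at least 1 FPKM in at least 5 libraries of the fit, and at least 3 values in each group compared. Fold changes on this scale understate changes of low genes. Genes under the filter (Agt in glomeruli, Agtr1b, Agtr2) were fitted without it, a choice made after seeing the data. Single genes were also compared by 2-sided exact permutation tests of the difference in mean log2(FPKM + 1), likewise added later. Of 72 such tests with zeros missing, 17 had an unadjusted p under 0.05. They include both tissue contrasts, where limma called 75.5% and 79.0% of all genes. Tests of 3 against 3 values could not reach that limit. The test was not run over all genes, so this count has no share to be set beside. The permutation p-values are not adjusted over the tests. The study's own test, Cuffdiff, needs the reads and was not used here.

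The 9 genes, the 28 pathway genes and the marker lists were chosen with earlier results of these data known. Named were the 9 genes, pathway genes that passed a test, and markers as lists; 1 gene of the pathway list is counted but not reported here. A search for genes of like pattern required values in all 16 groups, which none of the 9 genes had. The limma fits were tested on simulated data. Values were summarised in Python 3.11.15 with numpy 2.4.6 and pandas 2.3.3, and drawn with matplotlib 3.10.9. Alternatives were zeros entered as values, a pseudocount of 0.1, no low filter, at least 5 values per group, median-of-ratios and quantile scaling, compared groups alone, no trend, array weights, a replicate block, and each library left out in turn.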

Additional observations from a re-analysis of the deposited data

Results flagged for a closer look

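Of 60 groups of 4 to 6 values, 4 held a library with a gap to its nearest neighbour beyond Dixon's 95% limit, where chance gives about 1 in 20. These were Agtr1a at 16.39 FPKM in db/db PIO DRG replicate 4, Agtr1b at 0.26 FPKM in db/db PIO glomeruli replicate 4, Agtr2 at 0.09 FPKM in db/+ cortex replicate 5, and Atp6ap2 at 13.48 FPKM in db/db cortex replicate 6. In SCN, the difference between the pioglitazone effects on Agtr1b in db/db and db/+ mice passed the interaction test, at 0.43 on the log2 scale (SE 0.11, limma adjusted p = 0.042).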

How the results depend on the processing

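The results that held best were Agtr2 in db/db PIO against db/db SCN (log2 fold change 0.46 to 0.56 with a library left out), Agt in db/db against db/+ glomeruli, and Agt between glomeruli and cortex. They were called under every setting in which they were tested and with each library left out. Agt between glomeruli and cortex was not tested with the groups alone or with at least 5 values per group. Agtr1b in db/db against db/+ SCN was lost only with zeros entered (limma adjusted p = 0.074), and Agt in db/db PIO against db/db glomeruli under quantile scaling (-0.40, 0.065) and with the groups fitted alone (0.061). The calls on Agt in SCN, Agtr1a in DRG and Ren1 in glomeruli were lost under several settings. The cause of each change was not tested.

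The count of genes called fell to 0, against 1, with zeros entered for db/db over db/+ and db/db PIO over db/db SCN, db/db PIO over db/+ PIO DRG and db/db over db/+ glomeruli; with the groups alone for all of these but db/db PIO over db/db SCN; with array weights for db/db over db/+ SCN and the DRG comparison; with a pseudocount of 0.1 for db/db PIO over db/db SCN; without the low filter for the DRG comparison (in both SCN comparisons it stayed at 1 there, with Agt lost at a limma adjusted p of 0.062 and 0.074 and Agtr1b or Agtr2 called instead); and with at least 5 values per group for db/db PIO over db/db SCN, the DRG comparison and db/db over db/+ glomeruli. It was 1, against 0, for db/db PIO over db/+ PIO SCN (pseudocount 0.1, quantile scaling), for the drug's difference in SCN and db/db PIO over db/db glomeruli (no low filter), for db/db over db/+ cortex (array weights) and for db/db PIO over db/+ PIO cortex (groups alone, array weights). Without the low filter it was 2 for db/db over db/+ glomeruli and 1, against 2, for glomeruli over cortex, which had 0 with the groups alone or at least 5 values. SCN over DRG had 0 with zeros entered and 1 with at least 5 values, against 2. With 1 library left out, the counts ran between 0 and 1 for db/db over db/+ in SCN, glomeruli and cortex and for its difference between glomeruli and cortex, for db/db PIO over db/db in SCN and glomeruli, and for db/db PIO over db/+ PIO in DRG and cortex, and between 1 and 2 for glomeruli over cortex; no other count moved. Some of these 0 counts come from groups left with under 3 values, where a gene was no longer tested.

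Replicate numbers were not used to pair the samples. Same-numbered libraries deviated together with a correlation over 0.1 in SCN for 10 of 36 pairs, in DRG for 15 of 33, in cortex for 11 of 36 and in glomeruli for 20 of 36. Their median correlation was 0.12 in glomeruli (-0.014 for pairs of unlike number) and 0.060 in DRG (0.0061). It was -0.00069 in SCN (0.010) and -0.0072 in cortex (0.010). With a replicate block the count was 0 for db/db PIO over db/+ PIO DRG, 1 for db/db PIO over db/db glomeruli (Ren1, -1.27, limma adjusted p = 0.018) and 1 for glomeruli over cortex, where Ren1 was at -0.41 (limma adjusted p = 0.22), and Atp6ap2 in db/db over db/+ DRG was 0.0062.

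The sign changed in 93 of 2696 log2 fold changes of single genes, 89 of them called in neither fit. The called ones were all of Atp6ap2: db/db over db/+ cortex with array weights (0.36, limma adjusted p = 0.044) and without cortex db/db replicate 6, glomeruli over cortex with median-of-ratios scaling (-0.24, 0.015), and SCN over DRG with zeros entered (0.90, 0.74). Quantile scaling gave 0.20 for Agtr1a, 0.24 for Atp6ap2 and 0.41 for Enpep in db/db over db/+ SCN, -0.082 for Atp6ap2 and -0.0022 for Enpep in db/db PIO over db/db SCN, 0.093 for Enpep in db/db PIO over db/+ PIO DRG, and, for Atp6ap2 in other comparisons, 0.084, 0.070 and -0.15 in SCN, -0.067 and 0.052 in DRG, -0.019 and -0.0097 in glomeruli and -0.19 between glomeruli and cortex. Median-of-ratios scaling gave -0.0047, 0.024 and -0.029 for Atp6ap2 and -0.0064 for Agtr1a in SCN, 0.0054 for Agtr1a in DRG, -0.022 for Atp6ap2 in glomeruli and 0.00081 for Agtr2 in cortex. Array weights gave 0.021 for Atp6ap2 and 0.13 for Agt in SCN, 0.10, -0.0054 and 0.0031 for Agtr1a and Atp6ap2 in DRG, and -0.0088 for Atp6ap2 and 0.0089 for Agtr1b in glomeruli. Zeros entered gave -0.22 and -0.089 for Enpep and 0.90 for Atp6ap2 in SCN, -0.74 for Enpep and -1.66 and -0.60 for Atp6ap2 in cortex, 0.026 for Agtr1b in glomeruli, -0.90 for Atp6ap2 and -0.0070 for Agtr2 between glomeruli and cortex, and 0.90 for Agtr1a between SCN and DRG. A pseudocount of 0.1 gave 0.042 for the drug's difference in Agt in SCN.

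Leaving out 1 library changed the sign within these ranges: for Atp6ap2, -0.073 to 0.0067 and -0.035 to 0.028 in SCN, -0.025 to 0.0062 in DRG, -0.0083 to 0.066 and -0.036 to 0.039 in glomeruli, and -0.36 to 0.44 and -0.026 to 0.78 in cortex; for Enpep, -0.011 to 0.084 and -0.072 to 0.023 in DRG and -0.16 to 0.66 in cortex; for Agt, -0.28 to 0.053 in SCN, -0.080 to 0.015 in glomeruli and -0.41 to 0.070 in cortex; for Agtr1b, -0.055 to 0.0058 and -0.030 to 0.026 in glomeruli; and for Agtr2, -0.0052 to 0.040 and -0.0072 to 0.030 in DRG and -0.0044 to 0.032, -0.025 to 0.0047, -0.023 to 0.0049 and -0.019 to 0.018 in cortex.

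The values at 0 limit the comparisons. Between groups they left some genes with 3 or 4 values, Ace and Mme with none, and Agt and Agtr1a in untreated cortex and DRG untested.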
